A study of Rattus norvegicus with 50 samples.

Results

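Fibrillar collagens and fibronectin are parts of the scaffold between the tubules and vessels of the kidney, and proteases and their inhibitors act on it. The 6 genes described here encode parts of that interstitial matrix or proteins that act on it, and they were picked by Ensembl ID: Col1a1 (ENSRNOG00000003897), Col1a2 (ENSRNOG00000011292), Col3a1 (ENSRNOG00000003357), Fn1 (ENSRNOG00000014288), Timp1 (ENSRNOG00000010208) and Mmp2 (ENSRNOG00000016695). All 6 were present among the 32545 IDs of the deposited table, and all 6 passed the filter on low values in each fit. Libraries of cortex and of medulla from ZSF1 rat kidneys were made for total RNA sequencing, 5 per group and 50 in all. The ZSF1 rat is a hybrid strain whose obese animals carry defective leptin receptor alleles and develop diabetes and progressive kidney disease. In each tissue the groups were obese rats given enalapril at 10 mpk, obese rats given vehicle, obese rats given MK-8722 at 1 mpk, obese rats given MK-8722 at 10 mpk, and lean rats given vehicle, with doses in the unit of the labels. Enalapril blocks angiotensin-converting enzyme, and MK-8722 activates AMP-activated protein kinase, a sensor of cellular energy. Every group carried a treatment time of 28 weeks and an age of 20 weeks in the labels. The labels do not state which time point that age refers to. It cannot be the age at sampling if the treatment time is right, and neither time was used.

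Interstitial matrix is made mainly by fibroblasts and pericytes, which turn into myofibroblasts in the injured kidney and deposit type I and type III collagen and fibronectin. Build-up of that matrix, or tubulointerstitial fibrosis, accompanies the loss of tubules in chronic kidney disease. Matrix metalloproteinases cleave the deposited proteins, and tissue inhibitors of metalloproteinases, or TIMPs, hold those enzymes in check. Inhibition of the angiotensin system is an established means of slowing fibrosis in the kidney.

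Levels are in FPKM, which divides the fragments of a gene by its length and by the library's mapped total, so levels of different genes can be compared per length. Fold changes come from limma on log2(FPKM + 0.5), which understates changes of low genes, and a gene was called at a Benjamini-Hochberg adjusted p under 0.05 over all genes tested. Absolute depth is unknown, but relative depth ranged from 0.596 to 1.52 and was 1.02 ± 0.211 in obese vehicle and 1.35 ± 0.0807 in lean vehicle cortex, and 0.724 ± 0.0812 and 1.12 ± 0.0769 in obese vehicle and lean vehicle medulla (SD, n = 5). For obese vehicle against lean vehicle, the median of the log2 fold changes of all genes tested was 0.30 (cortex) and 0.37 (medulla). Each call was therefore repeated after dividing every library by a size factor, the median of its ratios to the geometric mean of each gene, which sets such medians near 0. The 6 genes with the highest summed FPKM of the whole table held 52.6 ± 8.23% of the FPKM sum in obese vehicle and 61.2 ± 2.37% in lean vehicle cortex, and 54 ± 1.22% and 61.9 ± 1.43% in obese vehicle and lean vehicle medulla (SD, n = 5). Obese vehicle cortex replicate 2 stood apart, at 39.1% with a summed FPKM of 722098, against 51.9% to 59.6% and 832965 to 910337 in the other 4 libraries of its group. The part of these differences in the results was not tested, and without that library the obese and lean vehicle cortex still differed in 6 of 6 genes. Nothing in the labels ties libraries to animals or a cortex to a medulla library, and the spread behind each p-value is that between libraries, which may be technical. In bulk tissue, fewer cells of a type and less RNA per cell cannot be told apart. The deposited table pairs IDs with no gene names, so tissue and cell type markers were not examined here.

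Promoter sequence was at hand for 2 of the 6 genes, Timp1 and Col1a2, and is shown because these had the largest and the smallest fold difference of the 6 between obese and lean vehicle rats in both tissues. The sequences are RefSeq's on the GRCr8 assembly, read 5′ to 3′ on the strand of the gene, and no measured value depends on their coordinates. For Timp1 (chrX:3771123-3771372, minus strand) the sequence covers the 250 bases before the annotated start. For Col1a2 (chr4:33518307-33518426, plus strand) it covers bases 250 to 131 before the start. Capitals mark matches to short motifs that were chosen after the sequences had been read.
Timp1: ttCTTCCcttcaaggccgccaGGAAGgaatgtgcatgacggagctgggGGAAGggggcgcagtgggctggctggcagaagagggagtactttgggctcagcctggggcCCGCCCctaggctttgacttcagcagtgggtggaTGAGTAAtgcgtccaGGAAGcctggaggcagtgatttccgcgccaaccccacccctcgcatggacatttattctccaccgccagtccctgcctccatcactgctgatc
Col1a2: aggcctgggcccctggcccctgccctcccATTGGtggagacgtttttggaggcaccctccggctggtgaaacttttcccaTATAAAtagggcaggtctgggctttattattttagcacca
In Timp1 the capitals are TGAGTAA, a variant of the AP-1 motif, at bases 108 to 102 before the start, 4 matches to the Ets core GGAAG on either strand, and GGGCGG, the GC box, on the opposite strand. In Col1a2 they are CCAAT on the opposite strand and TATAAA at bases 170 to 165 before the start. No match overlapped another, and the standard AP-1 motif TGANTCA was in neither sequence. Of 33469 promoters of the same table, searched on both strands, 2.38% held TGAGTAA, 63.3% GGAAG, 30.5% GGGCGG, 34% CCAAT, 12.9% TATAAA and 6.34% TGANTCA. A match is a description of letters and not a binding site.

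The 6 genes kept nearly the same order of abundance across the kidney. Col3a1, the chain of type III collagen, had the highest mean FPKM of the 6 in all 10 groups and Fn1, which encodes fibronectin, the second highest. Timp1, the inhibitor, came next in the obese groups of both tissues, and Mmp2, the gelatinase that degrades denatured and basement membrane collagen, was the lowest of the 6 in all 10 groups. Within cortex, the mean of each of the 6 genes was lowest in lean vehicle, followed in rising order by obese enalapril, obese MK-8722 10 mpk, obese vehicle and obese MK-8722 1 mpk. In that series only the step between lean vehicle and the obese groups separated the values of neighbouring groups, and for Col1a2 even lean vehicle and enalapril overlapped. These were arithmetic means. Log2 fold changes of MK-8722 10 mpk against enalapril in cortex were -0.07 for Col1a1, -0.06 for Timp1 and 0.20 to 0.55 for the others. Medulla gave the same order of means for Col1a2, Col3a1, Fn1 and Mmp2, while Col1a1 was lower in MK-8722 10 mpk than in enalapril and Timp1 was lower in MK-8722 1 mpk than in vehicle. Col3a1 averaged 92.6 ± 22.1 in enalapril, 159 ± 38.1 in obese vehicle, 184 ± 32.2 in MK-8722 1 mpk, 121 ± 77.9 in MK-8722 10 mpk and 33.7 ± 3.24 FPKM in lean vehicle cortex (SD, n = 5). In medulla the same gene averaged 127 ± 31.8, 207 ± 45.1, 218 ± 32.6, 136 ± 58.7 and 36.1 ± 3.12 FPKM in those groups (SD, n = 5).

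**Figure D1:**
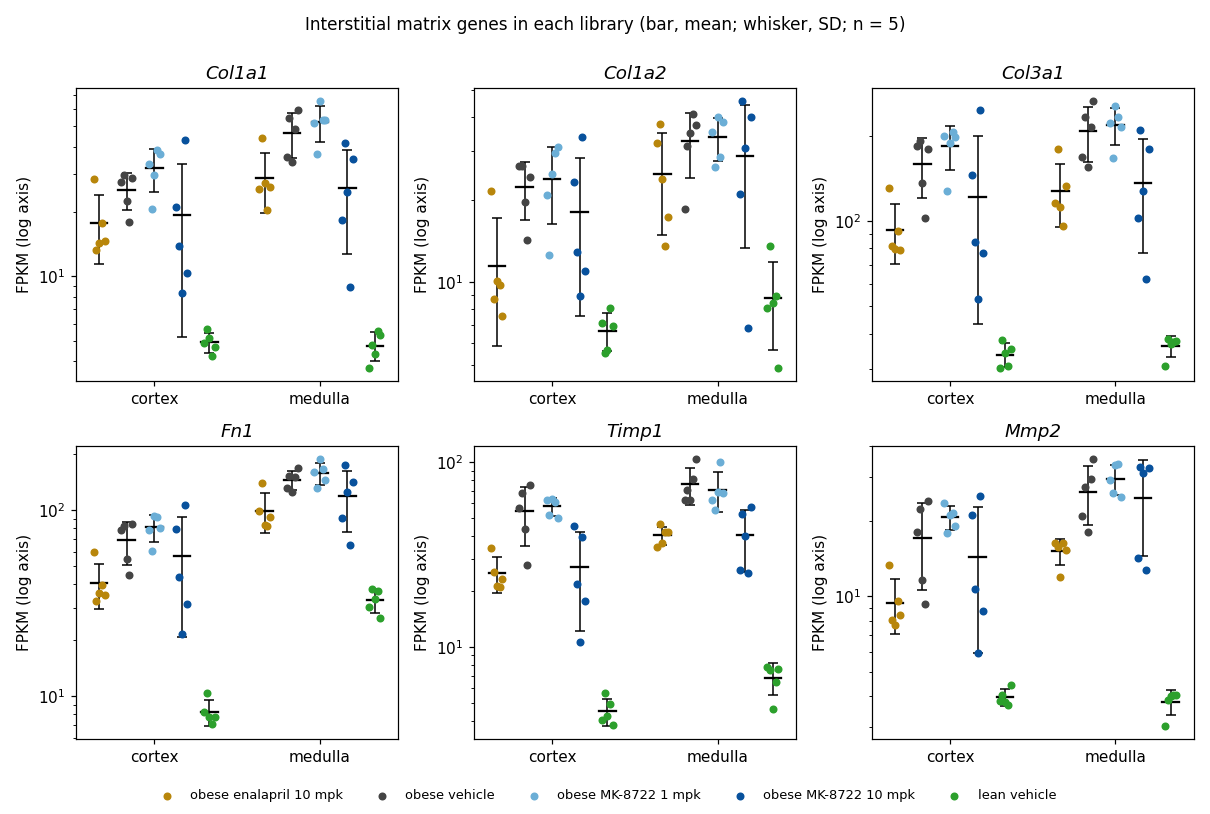
FPKM of the 6 matrix genes in each library (points, log axis) by tissue, with the group mean as a bar and the SD as a whisker (n = 5). In both tissues the obese vehicle points lie above all lean vehicle points for each gene, and the obese MK-8722 10 mpk points are widely scattered.

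Obesity came with higher expression of all 6 matrix genes in cortex and in medulla. In obese vehicle rats the collagens were several-fold above lean vehicle, fibronectin more so in cortex, and Timp1 most of all in both tissues. The median log2 fold change of the 6 was 2.21 (cortex) and 2.54 (medulla), where that of all genes was 0.30 and 0.37. In cortex 6 of 6 were called higher, where 54.3% of the 13579 genes tested were called higher, and in medulla 6 of 6, where 56.8% of 14195 were. After rescaling these counts were again 6 of 6, against 23.6% of genes in cortex and 27.2% in medulla. For all 6 genes each obese vehicle library exceeded each lean vehicle library, a separation that 36.4% of genes showed in cortex and 45.7% in medulla.

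Among the collagens, Col1a1 and Col1a2 encode the partner chains of type I collagen, the main fibrillar collagen of scar. In cortex Col1a1 measured 27.5, 29.6, 22.3, 17.9 and 28.6 FPKM in obese vehicle libraries, against 4.88, 5.66, 5.12, 4.26 and 4.66 FPKM in lean vehicle libraries. The lowest obese value, that of replicate 5, was still above the highest lean value, and the log2 fold change was 2.23 ± 0.303 (SE, limma, adjusted p = 3.04e-06). In medulla Col1a1 measured 36, 54.8, 34.1, 48.7 and 59.2 FPKM in obese vehicle libraries, against 3.74, 4.79, 4.32, 5.55 and 5.31 FPKM in lean vehicle libraries. These groups were far apart, with a ratio of means of 9.82 and a log2 fold change of 3.14 ± 0.287 (adjusted p = 3.76e-09, limma). Col1a2 had the smallest difference of the 6, a log2 fold change of 1.64 ± 0.317 in cortex (limma, adjusted p = 0.000176) and 1.85 ± 0.381 in medulla (adjusted p = 0.000209). Its means were 22.2 ± 5.29 in obese vehicle and 6.67 ± 1.06 FPKM in lean vehicle cortex, and 32.6 ± 8.64 and 8.77 ± 3.08 FPKM in obese vehicle and lean vehicle medulla (SD, n = 5). Col3a1 rose with log2 fold changes of 2.18 in cortex and 2.48 in medulla (limma, adjusted p = 1.36e-06 and 3.93e-09).

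Fn1 encodes fibronectin, the adhesive glycoprotein on which collagen fibres assemble. Cortical Fn1 measured 78.5, 82, 54.6, 45 and 84 FPKM in obese vehicle libraries, against 8.24, 10.4, 7.78, 7.07 and 7.71 FPKM in lean vehicle libraries. In medulla it measured 131, 153, 126, 151 and 169 FPKM in obese vehicle libraries, against 30.3, 37.6, 33.3, 36.8 and 26.3 FPKM in lean vehicle libraries. The groups did not overlap in either tissue, and lean medulla already held more Fn1 than lean cortex. The log2 fold change was 2.96 ± 0.304 in cortex and 2.14 ± 0.191 in medulla (SE, limma, adjusted p = 7.54e-08 and 1.56e-09).

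Of the 6, Timp1, a secreted inhibitor of metalloproteinases that is low in the healthy kidney and induced by injury, had the largest fold change. In cortex its values were 56.7, 68.2, 43.8, 27.9 and 75.1 FPKM in obese vehicle libraries, against 4.03, 5.61, 4.22, 4.92 and 3.76 FPKM in lean vehicle libraries. In medulla they were 62.7, 71, 62.4, 81.4 and 104 FPKM in obese vehicle libraries, against 7.82, 7.52, 4.61, 6.44 and 7.64 FPKM in lean vehicle libraries. No values overlapped, and the ratio of means was 12.1 in cortex and 11.2 in medulla. Log2 fold changes were 3.38 ± 0.294 and 3.39 ± 0.206 (SE, limma, adjusted p = 9.04e-09 and 5.27e-12), and after rescaling they were 3.07 ± 0.245 and 3.02 ± 0.183 (SE). Mmp2, the metalloproteinase among the 6, rose less than Timp1. Its means were 17.1 ± 6.48 in obese vehicle and 3.94 ± 0.297 FPKM in lean vehicle cortex (SD, n = 5, with a log2 fold change of 1.90, limma, adjusted p = 1.29e-05). In medulla its means were 26.3 ± 6.86 in obese vehicle and 3.78 ± 0.425 FPKM in lean vehicle (SD, n = 5; log2 fold change 2.61, limma, adjusted p = 8.07e-10). All 6 calls in both tissues held with relative depth as a term in the fit, with log2 fold changes of Timp1 at 2.76 in cortex and 2.82 in medulla.

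With enalapril the inhibitor Timp1 was lower than in obese vehicle rats in both tissues on the deposited values, together with Col1a2 in cortex and Mmp2 in medulla. In cortex 2 of 6 genes were called lower than in obese vehicle, where 13.9% of all genes were. Timp1 fell with a log2 fold change of -1.04 ± 0.294 and Col1a2 with -0.98 ± 0.317 (SE, limma, adjusted p = 0.0302 and 0.0431). The other 4 genes had log2 fold changes of -0.54 to -0.76 that did not pass, and the median over all genes was -0.18. After rescaling none of the 6 was called in cortex, against 1.27% of all genes, and the adjusted p of Timp1 was then 0.0615 (limma). Before rescaling 5 of the 6 had an unadjusted p under 0.05, as did 4935 of the 13579 genes tested. Cortical Timp1 measured 34.6, 25.5, 21.4, 21.2 and 23.3 FPKM in enalapril libraries, against 56.7, 68.2, 43.8, 27.9 and 75.1 FPKM in obese vehicle libraries. The groups met only where enalapril replicate 1, the highest of its group for all 6 genes, exceeded obese vehicle replicate 5, the lowest of its group for all 6. Without either of these libraries 5 of 6 genes were called lower. Of all genes, 21% were called without enalapril replicate 1 and 33.4% without obese vehicle replicate 5. Here and below, shares in fits without 1 library count calls of all genes in either direction. Without obese vehicle replicate 1, 2 or 6, or enalapril replicate 2, 4, 6 or 7, none of the 6 was called. The shares of all genes were then 0.17% to 0.251% and 0.317% to 4.39%. Obese vehicle replicate 5 was also its group's only library in a separate higher range of the library numbers that the sample descriptions carry, which held 8 of the 25 cortex libraries and whose meaning is not stated. Within the lower range, with 4 enalapril and 4 obese vehicle libraries, 6 of 6 genes were called lower. Log2 fold changes ran from -0.67 for Col1a1 to -1.20 for Timp1 (limma, adjusted p = 0.045 and 0.0031). The share of all genes called in that fit is not given here, and the range leaves out obese vehicle replicate 5. Relative depth also differed, at 1.24 ± 0.166 in enalapril and 1.02 ± 0.211 in obese vehicle cortex (SD, n = 5), and with depth as a term none of the 6 was called. The part of depth in the difference was not tested further.

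In medulla of enalapril-treated rats 2 of 6 genes were again called lower, against 9.06% of all genes. Timp1 measured 35, 46.4, 36.5, 41.9 and 41.8 FPKM in enalapril libraries, against 62.7, 71, 62.4, 81.4 and 104 FPKM in obese vehicle libraries. Mmp2 measured 16.3, 15.8, 12, 16.3 and 15.3 FPKM in enalapril libraries, against 21, 27.4, 18.1, 29.4 and 35.4 FPKM in obese vehicle libraries. For both genes each enalapril value lay below each obese vehicle value, and the enalapril values were close together. These were the 2 genes of 6 without overlap, and the share of all genes without overlap is not given here. The log2 fold changes were -0.89 ± 0.206 for Timp1 and -0.74 ± 0.22 for Mmp2 (SE, limma, adjusted p = 0.0188 and 0.0374). Col3a1 and Fn1 had log2 fold changes of -0.70 and -0.57 and lay just past the threshold (limma, adjusted p = 0.0513 and 0.0548). Rescaling left Timp1 as the 1 call (adjusted p = 0.0329, limma), against 1.83% of all genes. Leaving out enalapril replicate 5 or obese vehicle replicate 7 gave no call, and 1 gene was called without obese vehicle replicate 4 or 6 or without enalapril replicate 2 or 7. Leaving out enalapril replicate 3 gave 5 calls and obese vehicle replicate 5 gave 4. Of all genes, 16.6% and 15% were called in these fits. The shares were 0.19% and 0.0495% in the fits with no call, and 2.82% to 6.38% in those with 1.

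At the lower dose of MK-8722 none of the 6 genes was called in either tissue. In cortex 0% and in medulla 0% of all genes were called, although 583 and 577 genes had an unadjusted p under 0.05, and none of the 6 was among them. Log2 fold changes of MK-8722 1 mpk against obese vehicle ran from 0.07 for Col1a2 to 0.35 for Mmp2 in cortex and from -0.10 for Timp1 to 0.19 for Mmp2 in medulla. Their intervals allow moderate changes either way. For Timp1 the 95% interval was -0.45 to 0.77 in cortex and -0.53 to 0.32 in medulla, and for Col1a1 it was -0.30 to 0.95 and -0.42 to 0.77. Timp1 itself measured 62.6, 51.9, 63.5, 60.9 and 49.8 FPKM in MK-8722 1 mpk cortex, a narrower range than the obese vehicle values, which enclosed it.

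With MK-8722 at 10 mpk Timp1 was lower than in obese vehicle rats in both tissues, and Col1a1 and Col3a1 were lower in medulla. Cortical Timp1 measured 45.4, 21.9, 10.6, 39.6 and 17.8 FPKM in MK-8722 10 mpk libraries, against 56.7, 68.2, 43.8, 27.9 and 75.1 FPKM in obese vehicle libraries. Treated replicates 4, 5 and 7 were below all obese vehicle values, while replicates 2 and 6 fell within them. The log2 fold change was -1.10 ± 0.294 (SE, limma, adjusted p = 0.0112), and Timp1 was the 1 gene of 6 called lower, where 24.5% of all genes were. It remained the 1 call after rescaling, at -0.90 ± 0.245 (SE, limma, adjusted p = 0.0244), where 3.79% of all genes were called lower. The other 5 genes had log2 fold changes of -0.35 to -0.60 in cortex. Leaving out each of the 10 libraries of these groups in turn kept Timp1 called, with adjusted p of 0.00192 to 0.0404 (limma). Leaving out MK-8722 10 mpk replicate 6, the highest of its group for 5 of the 6 genes, gave 4 calls. Those added were Col1a1, Col3a1 and Fn1, and 32.5% of all genes were called in that fit.

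Relative depth in cortex was 1.34 ± 0.193 in MK-8722 10 mpk and 1.02 ± 0.211 in obese vehicle libraries (SD, n = 5). With depth as a term the log2 fold change of cortical Timp1 was -0.51 (limma, adjusted p = 0.426). A fit of these 2 groups alone gave -1.10 with an adjusted p of 0.105 (limma). The higher range of library numbers held 3 MK-8722 10 mpk and 1 obese vehicle libraries, and within the lower range, with 2 and 4 libraries, cortical Timp1 had a log2 fold change of -0.91 (limma, adjusted p = 0.0463).

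In medulla 3 of 6 genes were called lower with MK-8722 at 10 mpk, where 16.5% of all genes were. Timp1 measured 26.3, 52.6, 40.1, 25.3 and 57.4 FPKM in MK-8722 10 mpk libraries, against 62.7, 71, 62.4, 81.4 and 104 FPKM in obese vehicle libraries. The groups did not overlap, and the log2 fold change was -0.96 ± 0.206 (SE, limma, adjusted p = 0.00447). Timp1 was the 1 gene of 6 without overlap, and the share of all genes without overlap is not given here. Col1a1 measured 18.3, 41.7, 24.7, 8.85 and 35.1 FPKM in MK-8722 10 mpk libraries, against 36, 54.8, 34.1, 48.7 and 59.2 FPKM in obese vehicle libraries. Treated replicates 2 and 6 overlapped the lower obese vehicle values, and the log2 fold change was -0.99 ± 0.287 (SE, limma, adjusted p = 0.0233). Col3a1 fell with a log2 fold change of -0.70 ± 0.231 (SE, limma, adjusted p = 0.0389). Col1a2, Fn1 and Mmp2 had log2 fold changes of -0.38, -0.36 and -0.16 and were not called. After rescaling Timp1 was the 1 call, at -0.78 (limma, adjusted p = 0.0136), where 2.14% of all genes were called lower, and Col1a1 stood at -0.81 (adjusted p = 0.0747). Without obese vehicle replicate 4 or 7, or MK-8722 10 mpk replicate 1 or 5, Timp1 was again the 1 call. Of all genes, 7.27% to 12% were called in those fits. In a fit of these 2 groups alone none of the 6 was called, with an adjusted p of 0.0504 for Timp1 (limma).

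**Figure D2:**
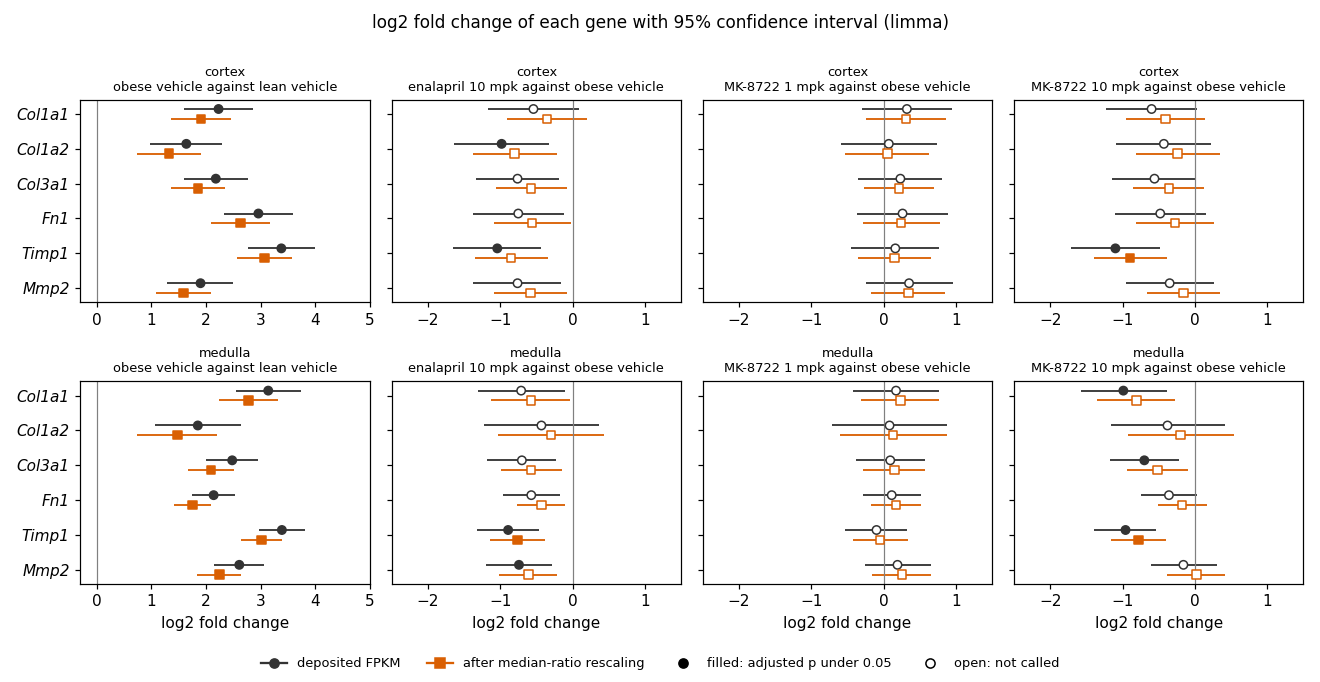
Log2 fold change (horizontal axis) of each gene with its 95% interval from limma, by tissue and comparison, on deposited values (circles) and after rescaling (squares), with calls filled. All 6 genes lie at 1.32 or above in obese vehicle against lean vehicle, the MK-8722 1 mpk values lie around 0, and Timp1 is the 1 gene with a filled deposited value for both enalapril and MK-8722 10 mpk in both tissues.

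The doses of MK-8722 were compared directly. Col1a1, Col3a1 and Timp1 were lower at 10 mpk than at 1 mpk in both tissues, 3 of 6 genes each time, where 28% of all genes were called lower in cortex and 4.9% in medulla. Cortical log2 fold changes were -0.93, -0.79 and -1.26 for these genes (limma, adjusted p = 0.0273, 0.0384 and 0.00567), and medullary ones were -1.16, -0.79 and -0.86 (adjusted p = 0.0248, 0.045 and 0.0218). The values of cortical Timp1 at 1 mpk, 49.8 to 63.5 FPKM, lay above all values at 10 mpk, 10.6 to 45.4 FPKM. Timp1 was the 1 gene of 6 so separated in cortex, and the share of all genes so separated is not given here. After rescaling Timp1 was the 1 call in cortex, against 4.62% of all genes, and Col1a1 and Timp1 were the 2 calls in medulla, against 1.14%. Counts without 1 library ran from 1 to 6 in cortex and from 0 to 4 in medulla. In cortex the count was 6 without MK-8722 10 mpk replicate 6 and 5 without replicate 2 (38.5% and 36.7% of all genes called). It was 1 without replicate 4, 5 or 7 or without MK-8722 1 mpk replicate 1 or 6 (12.9% to 23.9%). In medulla none was called without MK-8722 10 mpk replicate 1 or 5 or MK-8722 1 mpk replicate 6 (1.06% to 1.59% of all genes). Without MK-8722 1 mpk replicate 4 or 7, 1 was called (2.22% and 2.59% of all genes). With depth as a term none of the 6 was called in cortex, where relative depth was 1.34 ± 0.193 at 10 mpk and 1.06 ± 0.122 at 1 mpk (SD, n = 5).

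MK-8722 10 mpk and enalapril, which share the obese vehicle group as their reference, were also set directly against each other. None of the 6 genes was called in either tissue, where 9.63% of all genes were called in cortex and 2.73% in medulla. In medulla 1 of the 6, Mmp2, had an unadjusted p under 0.05, as did 2134 of the 14195 genes tested. Mmp2 had a log2 fold change of 0.58 ± 0.22 in medulla (SE, limma, adjusted p = 0.181), with 14.2, 32.9, 31.3, 12.8 and 32.7 FPKM in MK-8722 10 mpk libraries, against 16.3, 15.8, 12, 16.3 and 15.3 FPKM in enalapril libraries. Of these MK-8722 10 mpk libraries, 3 were near the obese vehicle level and 2 were near the enalapril level. Mmp2 was called higher without replicate 1 or without replicate 5, the pair near the enalapril level (limma, adjusted p = 0.0459 and 0.0294). In those fits 4.16% and 3.81% of all genes were called. The 95% intervals for Timp1, -0.67 to 0.55 in cortex and -0.50 to 0.35 in medulla, leave room for a difference of either sign.

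Treated obese rats were next compared with lean vehicle rats, to see how much of the difference remained. In enalapril cortex 5 of 6 genes were higher than in lean vehicle, where 20.8% of all genes were, and again 5 after rescaling, where 14.9% were. The exception was Col1a2, with 21.4, 8.67, 10.1, 9.75 and 7.52 FPKM in enalapril libraries, against 7.1, 5.52, 5.69, 8.07 and 6.96 FPKM in lean vehicle libraries. These values overlapped at enalapril replicate 7, and the log2 fold change of 0.65 had an adjusted p of 0.137 (limma). With MK-8722 in cortex all 6 genes were higher than in lean vehicle at 1 mpk, where 55.6% of all genes were, and at 10 mpk, where 27.9% were. The counts were also 6 of 6 at both doses after rescaling, against 26.4% and 22% of genes.

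In medulla all 6 genes were higher than in lean vehicle under each treatment, and again after rescaling. Relative depth was 0.763 ± 0.0983 in enalapril and 1.12 ± 0.0769 in lean vehicle medulla (SD, n = 5), and with depth as a term Col1a2 with enalapril was not called (log2 fold change 1.38, limma, adjusted p = 0.0971), against 1.42 without it. The shares of all genes called higher were 40.2% with enalapril, 52% with MK-8722 1 mpk and 36.6% with MK-8722 10 mpk on the deposited values, and 19.2%, 27% and 21.9% after rescaling. Timp1 remained several-fold above lean vehicle, with log2 fold changes of 2.35 with enalapril, 3.55 with MK-8722 1 mpk and 2.29 with MK-8722 10 mpk in cortex, and 2.50, 3.29 and 2.43 in medulla. Col1a2 in MK-8722 10 mpk medulla, called at 1.48 ± 0.381 (SE, limma, adjusted p = 0.00298), was the 1 called gene whose libraries overlapped those of lean vehicle. The overlap came from MK-8722 10 mpk replicate 5, with 6.8 FPKM, while the other 4 libraries held 21 to 45.5 and the lean vehicle libraries 4.89 to 13.5 FPKM.

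Cortex was compared with medulla in a joint fit of all 50 libraries. Of the 6 genes, Fn1 stood out in lean rats, with 8.24 ± 1.27 in cortex and 32.9 ± 4.67 FPKM in medulla (SD, n = 5). Its log2 difference of -1.93 ± 0.259 (SE, limma, adjusted p = 4.75e-08) was the 1 call of 6, where 28.4% of all genes were called lower in cortex, and 1 again after rescaling, where 20.4% were. In obese vehicle rats Fn1, Col1a1 and Mmp2 were lower in cortex, 3 of 6, where 35.1% of all genes were. Their log2 differences were -1.11, -0.86 and -0.66 (limma, adjusted p = 0.000547, 0.0181 and 0.0399). Rescaling left Fn1 and Col1a1, 2 of 6, against 20.2% of all genes. Without cortex replicate 5 or medulla replicate 7, Fn1 was the 1 call, where 35.7% and 39.6% of all genes were called. Relative depth was 1.02 ± 0.211 in cortex and 0.724 ± 0.0812 in medulla of these rats (SD, n = 5), and with depth as a term 1 gene was called.

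Whether an effect differed between tissues was tested as an interaction. For obese vehicle against lean vehicle none of the 6 passed, where 4.86% of the 14586 genes tested did. An unadjusted p under 0.05 was found for 2533 of all genes and for 2 of the 6. These were Fn1, whose log2 fold change was larger in cortex by 0.82 ± 0.367, and Col1a1, with a difference of -0.92 ± 0.428 (SE, limma, adjusted p = 0.222 and 0.249). None of the 6 passed for enalapril or for MK-8722 10 mpk against obese vehicle, where 0.00686% and 0.226% of all genes did. None of the 6 had an unadjusted p under 0.05, where 774 and 1207 of all genes had. The 95% intervals of the difference for Timp1 were -0.89 to 0.60 for enalapril and -0.87 to 0.61 for MK-8722 10 mpk.

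Ratios of members within a library do not depend on how that library was scaled, and they are given as a description with no test. The ratio of the inhibitor Timp1 to the enzyme Mmp2 was higher in obese vehicle than in lean vehicle cortex, at 3.22 ± 0.318 and 1.15 ± 0.222 (SD, n = 5). It was lower in MK-8722 10 mpk than in obese vehicle libraries in both tissues, with no overlap. The ratios ran from 1.56 to 2.15 in MK-8722 10 mpk and from 3 to 3.78 in obese vehicle cortex, and from 1.28 to 1.97 and from 2.59 to 3.45 in medulla. The enalapril mean lay between those of MK-8722 10 mpk and obese vehicle, at 2.7 ± 0.352 in cortex and 2.68 ± 0.347 in medulla, and MK-8722 1 mpk at 2.79 ± 0.163 and 2.41 ± 0.415. In medulla the lean vehicle ratio overlapped that of MK-8722 10 mpk, with means of 1.69 ± 0.266 in MK-8722 10 mpk and 1.84 ± 0.523 in lean vehicle libraries (SD, n = 5).

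The chains of type I collagen did not keep a fixed proportion. The Col1a1 to Col1a2 ratio was 1.15 ± 0.0817 in obese vehicle and 0.762 ± 0.198 in lean vehicle cortex, and 1.49 ± 0.402 and 0.607 ± 0.284 in obese vehicle and lean vehicle medulla (SD, n = 5). The medullary ratios of these groups overlapped, with 0.977 to 1.95 in obese vehicle and 0.356 to 1.09 in lean vehicle libraries. In cortex the enalapril ratio was higher still, at 1.32 to 1.94 against 1.04 to 1.27 in obese vehicle libraries. In medulla the enalapril mean was instead below that of obese vehicle, at 1.22 ± 0.297 (SD, n = 5). Col1a2 had the lower level of these chains in obese vehicle cortex and the higher level in lean vehicle cortex. The Col3a1 to Col1a1 ratio was 6.24 ± 0.373 in obese vehicle and 6.88 ± 0.52 in lean vehicle cortex, and in medulla 4.46 ± 0.152 and 7.7 ± 0.753 in these groups (SD, n = 5). The medullary ratios of these groups did not overlap, with 4.26 to 4.66 in obese vehicle and 6.72 to 8.5 in lean vehicle libraries.

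**Figure D3:**
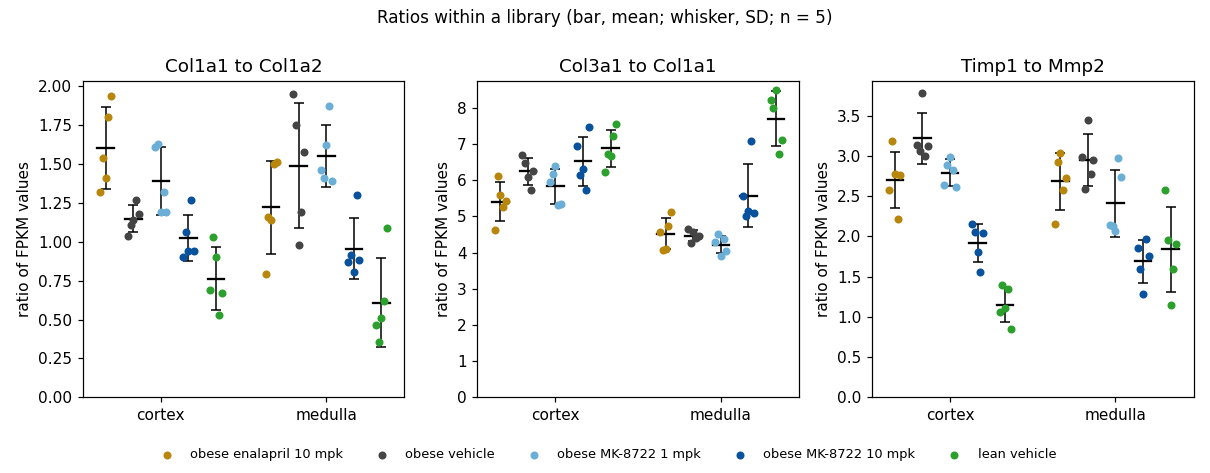
Ratio of FPKM values within each library (points) for 3 pairs of matrix genes by tissue and group, with the group mean as a bar and the SD as a whisker (n = 5). The Timp1 to Mmp2 points of MK-8722 10 mpk lie below all obese vehicle points in both tissues, and the medullary Col3a1 to Col1a1 points of obese vehicle lie below all lean vehicle points.

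Libraries of 1 group differed most under MK-8722 at 10 mpk. The coefficient of variation of the 6 genes had a median of 60.7% and a range of 54.7% to 73.1% in MK-8722 10 mpk cortex, and 42.4% and 35.9% to 53.5% in medulla. In the other 8 groups the median was 13% to 26%. The 6 genes moved together in this spread. In cortex replicate 5 was lowest for all 6 genes, with 8.38 FPKM of Col1a1 and 53 FPKM of Col3a1, and replicate 6 was highest for 5 of 6, with 43 and 246 FPKM. The label number 5 also belonged to the lowest MK-8722 10 mpk library of medulla for all 6 genes, although no label says that equal numbers mark 1 animal. After rescaling these counts were 6 of 6 and 5 of 6 in cortex and, for medulla replicate 5, 5 of 6. The cortex libraries numbered 5, 6 and 7 of this group were in the higher range of library numbers, so that range held its lowest and its highest library.

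**Figure D4:**
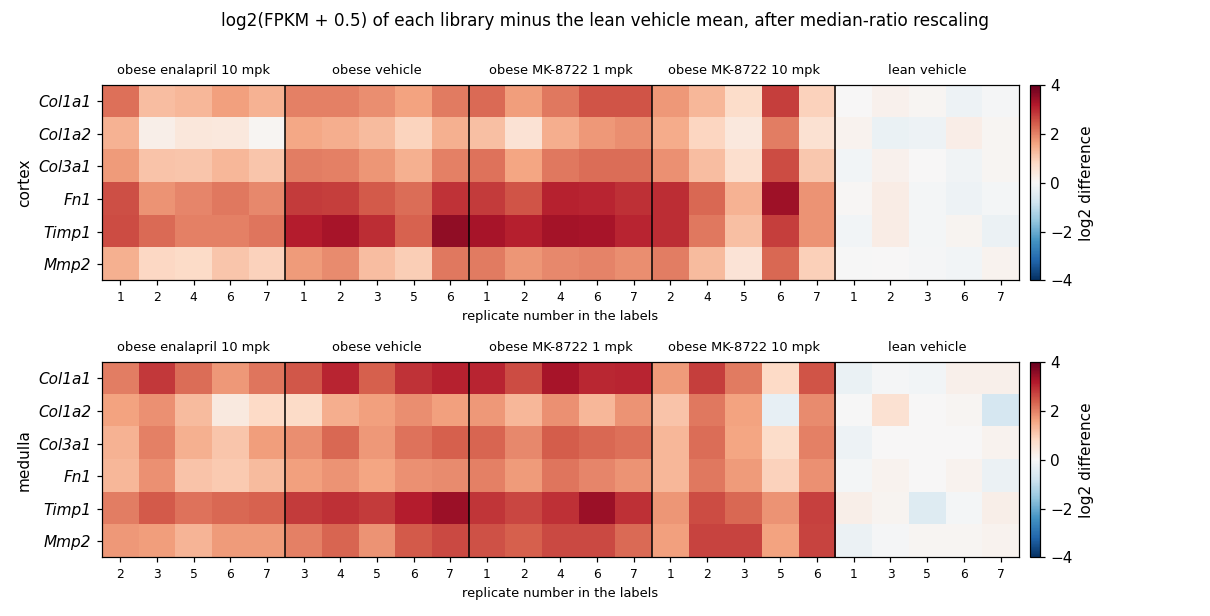
Difference of each library's log2(FPKM + 0.5) from the lean vehicle mean of its tissue after median-ratio rescaling (color), with genes as rows and libraries by replicate number as columns. All obese vehicle cells are above 0, and within MK-8722 10 mpk whole columns are pale or dark, with replicate 5 pale in both tissues.

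Deviations from group means were correlated between members over the 25 libraries of a tissue, as 15 pairs in each tissue with Benjamini-Hochberg adjustment over the pairs of both tissues. In cortex Pearson's r ran from 0.74 to 0.97 and Spearman's rho from 0.67 to 0.95, all 15 pairs passed by both measures (permutation within groups, highest adjusted p = 0.0008 and 0.00343), and r without the 2 libraries farthest from the median was 0.68 to 0.94. In medulla r ran from 0.50 to 0.98 and rho from 0.43 to 0.93, 15 pairs passed by r and 14 by rho (permutation, highest adjusted p = 0.0484 and 0.0653), and r without the 2 farthest libraries was 0.41 to 0.96. Col1a1 and Col3a1 formed the closest pair, with r of 0.97 in cortex and 0.98 in medulla. Col1a2 and Timp1 had the lowest r in both tissues, 0.74 and 0.50. Between a member and the other genes that passed the filter, r had a median of 0.38 over 13573 genes of cortex and 0.24 over 14189 genes of medulla. Of these pairs, 11.1% in cortex and 24.3% in medulla had an r as high as the lowest of the member pairs. A shift of a library is shared by all its genes, and after rescaling r was 0.65 to 0.97 in cortex and 0.39 to 0.98 in medulla, where 13 of 15 pairs passed. The median r with other genes was then 0.02 and 0.03, and 6.52% and 19.2% of those pairs reached the lowest r of the member pairs.

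Over all 50 libraries Col3a1 was the gene most like Col1a1 among 14585 others, with r = 0.985 of log2(FPKM + 0.5). For Col3a1 in turn, Col1a1 ranked 4 of the 14585. Most member pairs were less close. Timp1 and Mmp2 ranked 64 and 80 for Col1a1, whereas Col1a2 ranked 699 and Fn1 838. Col1a2 and Timp1 were the least alike, with r = 0.845. Among the genes most like Timp1, Col1a2 ranked 1738, and among those most like Col1a2, Timp1 ranked 1030. Outside the 6, the genes nearest to the mean profile of the members were ENSRNOG00000003736, with r = 0.99, and ENSRNOG00000010947, with r = 0.987, among 14580 genes. These r values describe libraries that share tissue, group and scaling, and neither ID is paired with a name in the deposited table.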

How the data were processed

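Total RNA of frozen kidneys was extracted with Qiagen RNeasy and sequenced from Illumina TruSeq stranded total RNA libraries with Ribo-Zero depletion, per the labels' protocols. The authors deposited 1 table of FPKM values, per the file headers, with 1 column per library. No aligner, counting tool or genome build is named; each was not given in the sources used here. All 50 columns matched a sample, and 0 columns belonged to no sample.

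Genes with at least 1 FPKM in at least 5 libraries of a fit were kept, and log2(FPKM + 0.5) was fitted with limma 3.58.1 in R 4.3.3 over the 5 groups of a tissue, or over both tissues for tissue differences and interactions. P-values were adjusted by the Benjamini-Hochberg method over all genes tested, and the fits were tested on simulated data. Permutations used Python 3.11.15 and SciPy 1.17.1. Low FPKM values fell on whole multiples of a library's unit, within 0.1 reads, for 94.6% of 59661 values in 5012 genes, which gave relative but not absolute depth, so counts were not recovered and no intervals for counting error could be computed.

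The text names the 6 genes and the IDs most like their mean profile. The genes and lists were chosen with earlier results of these data known. Lists and cell type markers written as symbols could not be applied, because IDs are not paired with symbols in the sources used here. Groups share replicate numbers, but the labels state no pairing. Same-numbered libraries deviated together in 1 comparison, MK-8722 10 mpk against obese vehicle cortex (3 pairs, r of 0.27 to 0.457 over genes), where a fit with the replicate number as a block also called Timp1 alone (log2 fold change -1.04, limma, adjusted p = 0.0011). Alternatives were another pseudocount (0.1), no filter, rescaling, the block, the range of library numbers, the 2 groups alone, each library left out and, added after seeing the data, relative depth as a term.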

Additional observations from a re-analysis of the deposited data

Results flagged for a closer look

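Each of the 6 genes in each of the 10 groups of 5 libraries was examined for a library whose gap to its nearest neighbour was large against the whole range of the group, by Dixon's criterion at the 95% level. Chance passes it in about 1 in 20 groups, and 9 of the 60 gene and group combinations did so. In enalapril cortex replicate 1 was high for 4 genes. Its Col1a1 was 28.3 FPKM against 13.3 to 17.6 in the other 4 libraries (gap over range 0.719), Col1a2 21.4 against 7.52 to 10.1 (0.817), Col3a1 131 against 78.8 to 92.4 (0.74) and Fn1 59.9 against 32.5 to 39.6 (0.74). In MK-8722 1 mpk cortex replicate 2 was low for Col3a1, at 127 against 189 to 206 FPKM (0.781). In enalapril medulla replicate 3 was high for Fn1, at 141 against 82.7 to 99.1 FPKM (0.721), and replicate 5 was low for Mmp2, at 12 against 15.3 to 16.3 FPKM (0.777). In lean vehicle medulla replicate 1 was low for Col3a1, at 30.6 against 36.7 to 38.2 FPKM (0.797), and for Mmp2, at 3.04 against 3.83 to 4.04 FPKM (0.788).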

How the results depend on the processing

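Counts of the 6 genes called in obese vehicle against lean vehicle were 6 in both tissues under all alternatives run. The count for enalapril against obese vehicle cortex, 2 as reported, was 1 with no filter, 0 after rescaling, 5 with the replicate block, 0 with depth as a term, 1 with the 2 groups alone, 6 in the lower range of library numbers and 0 to 5 without 1 library. In medulla it was 2 as reported, 1 with no filter, 1 after rescaling, 4 with the 2 groups alone and 0 to 5 without 1 library. For MK-8722 10 mpk against obese vehicle cortex it was 1 as reported, 0 with depth as a term, 0 with the 2 groups alone and 1 to 4 without 1 library. In medulla it was 3 as reported, 1 after rescaling, 1 with the block, 1 with depth as a term, 0 with the 2 groups alone and 1 to 4 without 1 library. For MK-8722 10 mpk against 1 mpk cortex it was 3 as reported, 1 after rescaling, with the block, with the library number range as a term or with the 2 groups alone, 0 with depth as a term or in the lower range, and 1 to 6 without 1 library. In medulla it was 3 as reported, 0 with the block or the 2 groups alone and 0 to 4 without 1 library. For MK-8722 10 mpk against enalapril it was 0 as reported, 1 with the block in cortex, and in medulla 1 with depth as a term and 0 to 1 without 1 library. For cortex against medulla it was 1 as reported and 2 with the block in lean vehicle rats, and 3 as reported, 1 with depth as a term and 1 to 4 without 1 library in obese vehicle rats. The share of all genes called changed as well. For enalapril against obese vehicle cortex it was 0.17% without obese vehicle replicate 2 and 33.4% without obese vehicle replicate 5. The cause of these changes was not tested. Shares are not given here for the fits with no filter, the block, the depth term, the number range or the 2 groups alone. The counts of those fits therefore cannot be set against all genes. The block changed no other count of the 6 by more than 1.5 times. Outside MK-8722 10 mpk against obese vehicle cortex, same-numbered libraries had r of up to 0.287, in MK-8722 1 mpk against lean vehicle cortex. The lowest r was -0.264, in MK-8722 10 mpk against 1 mpk medulla. The labels tie such libraries by nothing but the number.

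Of 2466 alternatives to single values, 2200 kept the direction and the side of the threshold, 109 stayed uncalled but changed sign, 116 lost a call, 41 gained one and 0 reversed a called value. FPKM gives no absolute depth, so counting error could not be set beside the spread between libraries.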
